A study of Bos taurus with 6 samples.

Results

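The transcripts described here encode the machinery that brings proteins into mitochondria and the carriers and channels that move small molecules across the mitochondrial membranes. They were the probe sets whose platform annotation gave exactly 1 gene symbol beginning with TIMM, TOMM, SLC25A or VDAC, with the probe set of the highest mean standing for each gene. This gave 47 genes on 63 probe sets, out of 9154 genes with a single symbol and 24016 probe sets tested. They comprised 7 TOMM, 11 TIMM, 26 SLC25A and 3 VDAC genes. A further 26 protein-coding genes with such symbols in the ARS-UCD2.0 gene table, among them TOMM20, TIMM17A and SLC25A13, had no probe set under their symbol and were not analysed here.

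The samples were RNA from bovine blastocysts of inseminated, superovulated Simmental heifers, collected on day 7, each hybridised to 1 Affymetrix GeneChip Bovine Genome Array in 2 groups of 3 arrays. The 3 superovulated arrays held embryos that stayed in the superovulated donor until day 7. The 3 synchronized arrays held embryos from donors that were superovulated and inseminated in the same way, but these embryos were taken out on day 2 at the 2-cell stage and placed endoscopically in recipients that had been synchronized without superovulation. All embryos of both groups therefore began in a superovulated animal, and the synchronized group differed also by the flushing and the transfer. The design text gives 18 superovulated heifers, of which 9 were flushed on day 2, and the labels do not say which animals or how many embryos stood behind an array, so the spread between arrays of a group may be technical.

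Nearly all mitochondrial proteins are made in the cytosol and enter through the translocase of the outer membrane, the TOM complex. Precursors with a cleavable presequence then pass the TIM23 complex of the inner membrane into the matrix, whereas carriers are escorted by small chaperones of the intermembrane space to the TIM22 complex, which inserts them into the inner membrane. The carriers of the SLC25 family exchange metabolites across that membrane, the ADP/ATP and phosphate carriers supplying the ATP synthase and exporting its product, and the VDAC channels let small molecules cross the outer membrane. In the blastocyst, ATP from mitochondria supports the ion pumping of the trophectoderm that fills the blastocoel.

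Values are deposited log2 expression values, and differences are the superovulated mean minus the synchronized mean on that log2 scale. A gene was called when limma's adjusted p was below 0.05 over all probe sets, and called by a looser rule when adjusted p was below 0.3 with a difference of at least 2-fold. A value under log2 4 lies near the background of these arrays, whose medians were 2.75 to 2.8, and the size of a difference that starts there is uncertain.

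In blastocysts from superovulated heifers the carrier of ADP and ATP encoded by SLC25A6 and the protein-import channel encoded by TIMM23 were the members that passed the test. TIMM23 read below log2 4, near background, on all 6 arrays, so the size of its change is uncertain. Centring on bright probe sets, which lowered every difference by the same amount, left TIMM23 at 0.01. By values that did not pass the test, transcripts of the phosphate carrier SLC25A3, the ADP/ATP carrier SLC25A5 and the small translocase subunits TOMM6 and TOMM7 also lay higher on every superovulated array than on any synchronized one. The metabolite carriers outside the ADP/ATP and phosphate group stayed near background on all arrays. Of the 47 genes, 2 were called higher (0.695% of all probe sets were) and 0 lower (0.0208%). By the looser rule 2 were higher, SLC25A5 and SLC25A6 (1.79% of all probe sets), and 0 lower (0.104%). At an unadjusted p below 0.05 in limma, 10 members were higher (4.56% of all probe sets) and 1, SLC25A30, was lower (2.09%). The groups did not overlap in 11 members that were higher (5.42% of all probe sets) and in 4 that were lower (7.89%). Of the 9154 single-symbol genes, each with 1 probe set chosen in the same way, 9.06% were higher without overlap and 7.87% lower. Of those genes 119 were called higher and 2 lower, and 288 and 12 by the looser rule. At an unadjusted p below 0.05 in limma 720 of them were higher and 198 lower. Having 1 probe set per gene, they are the closer comparison than all probe sets for the member and list counts below. The 2 called members became 1, 0 and 0 without superovulated arrays 1, 2 and 3, and 2, 1 and 0 without synchronized arrays 1, 2 and 3. Over all probe sets the 167 called higher became 77, 26 and 53, and 54, 96 and 44, in the same order.

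Of the 47 members 36 read below log2 4 on all 6 arrays, where a difference may not be seen. The median difference over all 47 was 0.03, beside -0.02 over all probe sets and -0.02 over all single-symbol genes, with 26 members above 0 and 21 below. Over the 7 members whose mean exceeded log2 4 the median difference was 0.93, with 6 above 0. Over all 1406 probe sets that bright it was 0.59, so bright probe sets outside the members were higher as well. In 5 of the 7 the groups did not overlap, with the superovulated arrays higher, against 42.5% of bright probe sets. None of the 7 was called by limma over all probe sets, whereas 7.82% of bright probe sets were. At an unadjusted p below 0.05 in limma 5 of the 7 were higher, as were 555 of the 1406 bright probe sets. By limma among bright probe sets alone 3 of the 7 were called higher, as were 413 of the 1406. The 7 and the 1406 were picked on the mean of both groups, so a probe set could be bright through 1 group alone. SLC25A5 and TOMM22 had synchronized means of 3.12 and 3.97, below log2 4, and were bright through their superovulated arrays. In TOMM34 the synchronized mean was the higher, at 4.63 against 4. These counts are therefore not independent of the differences.

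**Figure D1:**
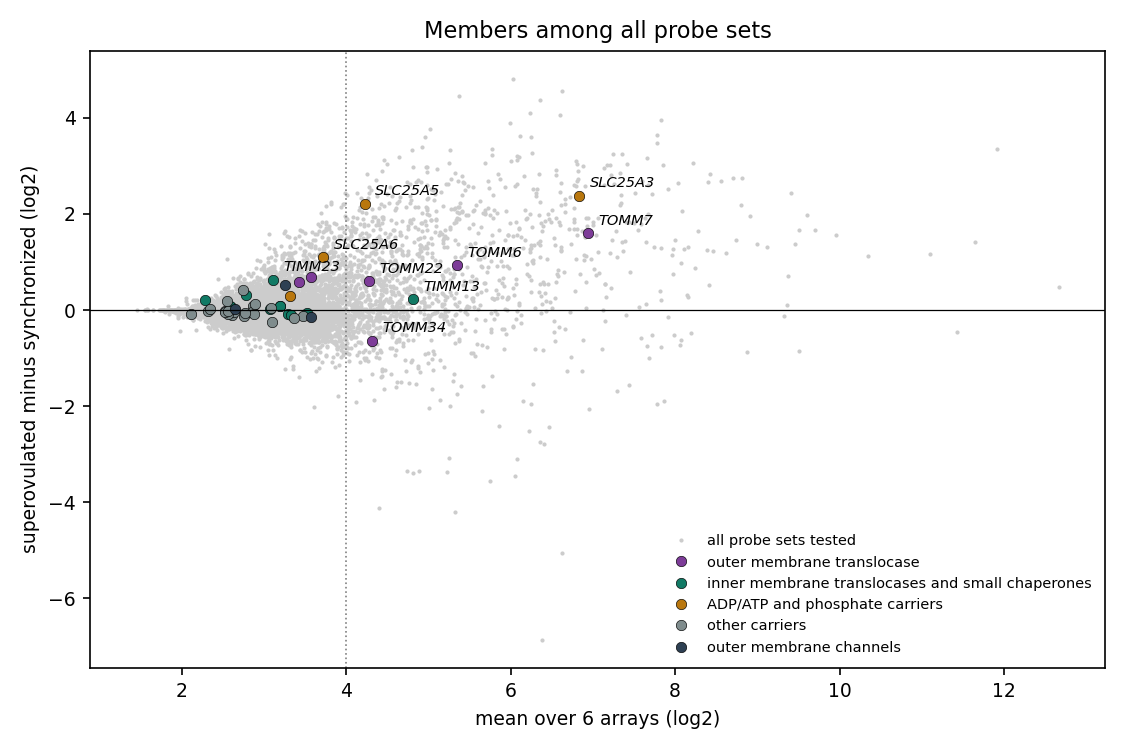
Mean over the 6 arrays (log2, x axis) against the difference superovulated minus synchronized (log2, y axis) for the 24016 probe sets tested, with the 47 members coloured by role; the dotted line marks log2 4. The carriers outside the ADP/ATP and phosphate group (grey) lie at the left near 0, and SLC25A3, SLC25A5, TOMM7 and SLC25A6 lie above it.

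Among the outer membrane translocase genes 0 of 7 passed, 6 differences were above 0 and the median was 0.60. In 4 of them, TOMM6, TOMM7, TOMM22 and TOMM70, the groups did not overlap with the superovulated arrays higher. So it was in 5.42% of all and 42.5% of bright probe sets, and in 9.06% of single-symbol genes. Of the 7 genes 4 were bright, TOMM22 with a synchronized mean of 3.97, below log2 4. TOMM7, a small subunit that takes part in assembly of the translocase and in holding the kinase PINK1 at the outer membrane, read 7.82, 7.76 and 7.65 across superovulated arrays 1 to 3 and 5.16, 6.59 and 6.67 across synchronized arrays 1 to 3. The superovulated arrays lay within 0.17 of each other and all above the synchronized ones, of which array 1 was the lowest. The group values were 7.74 ± 0.09 and 6.14 ± 0.85 (mean ± SD, n = 3), a difference of 1.60 (95% interval 0.46 to 2.74, limma adjusted p = 0.434). Without synchronized array 1 the difference was 1.11 and passed (limma adjusted p = 0.0389). On leaving out any other single array it did not pass (limma adjusted p from 0.301 to 0.801).

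TOMM6, another small subunit that stabilises the complex, read 6.08, 5.72 and 5.63 across the superovulated arrays and 4.61, 5.12 and 4.91 across the synchronized arrays. The groups were 0.51 apart at their nearest arrays, and the difference of 0.93 (0.46 to 1.40) did not pass (limma adjusted p = 0.181). TOMM22, the receptor that holds the channels of the complex together, read 4.57, 4.80 and 4.34, then 4.01, 3.92 and 3.99. All 3 superovulated arrays were above all synchronized ones, and the difference of 0.60 (0.28 to 0.91, limma adjusted p = 0.208) became -0.02 once each array was centred on its bright probe sets. After a second quantile normalization TOMM7, TOMM6 and TOMM22 differed by 0.57, 0.24 and 0.22.

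TOMM70, the receptor for carrier precursors that docks the cytosolic chaperones HSP70 and HSP90, read 3.52, 4.24 and 3.98, then 2.90, 3.49 and 3.28. The groups were separated by only 0.03, the difference was 0.69 (0.06 to 1.32, limma adjusted p = 0.636), and the other probe set of the gene differed by 0.02. TOMM40, the channel itself, read 3.56, 4.51 and 3.09 across the superovulated arrays and 3.10, 3.11 and 3.18 across the synchronized arrays. Superovulated array 2 alone stood clearly above the rest, with a difference of 0.59 whose interval ran from -0.38 to 1.56. TOMM5, the remaining small subunit, differed by 0.09 (-0.21 to 0.38).

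TOMM34, a cytosolic cochaperone of HSP70 and HSP90 that carries the family name without being part of the membrane complex, went the other way in its mean. It read 3.48, 3.71 and 4.80 across superovulated arrays 1 to 3 and 4.27, 5.67 and 3.95 across synchronized arrays 1 to 3. The highest arrays were superovulated array 3 and synchronized array 2, and the groups overlapped. The difference of -0.63 had an interval from -2.18 to 0.91 (limma adjusted p = 0.636) and was -0.11 without synchronized array 2, and the other probe sets of the gene differed by -0.22 and -0.16.

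**Figure D2:**
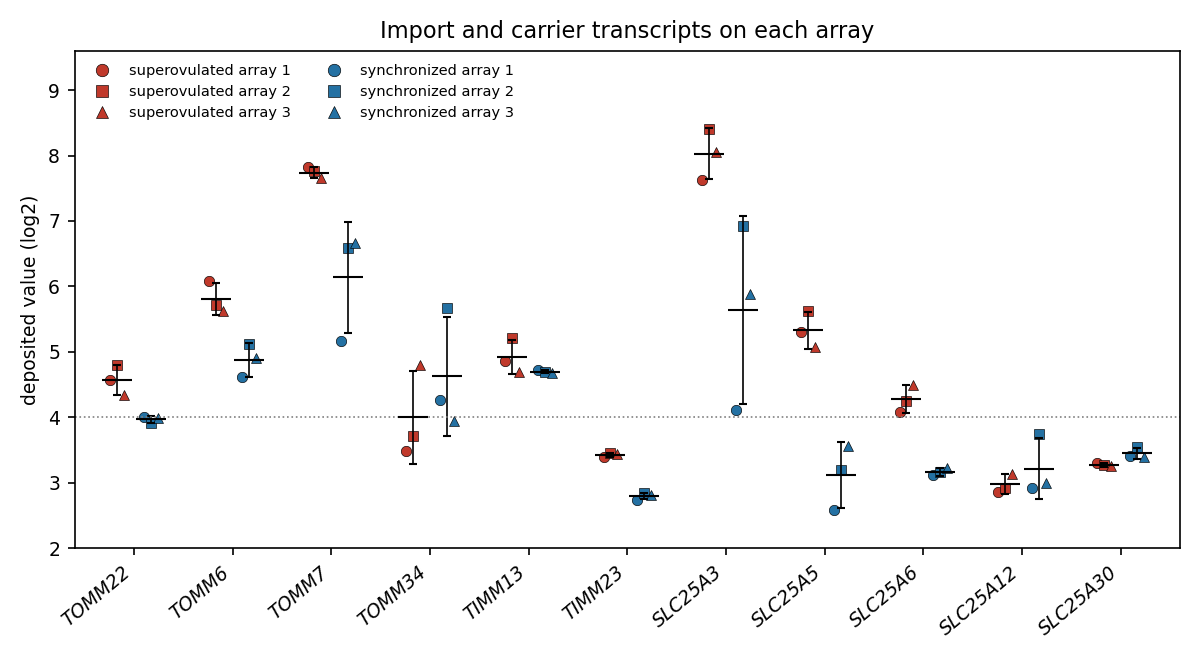
Deposited log2 value (y axis) of the 11 members named by level, call or largest negative difference (x axis) on each of the 6 arrays; red, superovulated; blue, synchronized; the marker shape gives the array number, bars are mean ± SD (n = 3) and the dotted line marks log2 4. SLC25A3 across the synchronized arrays runs from 4.11 to 6.93, below the 7.63 to 8.40 of the superovulated arrays, while the arrays of TIMM23 stay within 0.10 of each other in either group.

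At the inner membrane 1 of 11 TIMM genes rose, as did 0.695% of all probe sets and 119 of the 9154 single-symbol genes. The number that fell was 0 and the median difference was 0.08. The gene that rose was TIMM23, the channel-forming subunit for proteins with a presequence. It read 3.39, 3.45 and 3.44 across superovulated arrays 1 to 3 and 2.74, 2.84 and 2.81 across synchronized arrays 1 to 3. Arrays of a group lay almost together, and the nearest arrays of the groups were 0.55 apart. The means were 3.43 ± 0.03 and 2.80 ± 0.05 (n = 3), a difference of 0.63 or 1.55-fold (95% interval 0.54 to 0.72, limma adjusted p = 0.0139), all of it at values near background. The call was lost without superovulated array 2 (adjusted p = 0.0648), superovulated array 3 (0.0576) or synchronized array 3 (0.0568), while the difference stayed between 0.60 and 0.65 over the 6 single omissions. After centring on bright probe sets, which lowered the median difference of all probe sets to -0.64, TIMM23 stood at 0.01.

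The other subunits of the TIM23 complex and its motor did not pass, and all of their values were near background. TIMM50, the receptor that hands precursors to the channel, read 2.70, 3.02 and 3.10, then 2.78, 2.40 and 2.71, a difference of 0.31 (-0.08 to 0.70). TIMM21, which links the channel to the outer translocase, read 3.32, 3.25 and 3.26 against 3.29, 3.72 and 3.15, with synchronized array 2 the highest of the 6. TIMM17B, the partner of the channel, differed by 0.22, TIMM44, which anchors the import motor, by 0.06, and TIMM22, the channel for carriers, by 0.03. For these 5 genes the 95% intervals lay between -0.51 and 0.70, within 2-fold in either direction. TIMM50 and TIMM17B were chosen for mention after their values were seen.

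The small chaperones of the intermembrane space, which keep carrier precursors soluble, showed 0 calls in 5 genes by limma (0 also at an unadjusted p below 0.05). TIMM13, the only one of them with a mean above log2 4, read 4.86, 5.21 and 4.70 across the superovulated arrays and 4.72, 4.69 and 4.68 across the synchronized arrays. The synchronized arrays were nearly identical and the lowest superovulated array fell among them, with a difference of 0.23 (-0.13 to 0.58, limma adjusted p = 0.636). Its sign turned to -0.37 after a second quantile normalization and to -0.39 after centring on bright probe sets. TIMM8A read 3.58, 3.43 and 3.49 against 3.52, 3.60 and 3.53, and TIMM8B, TIMM9 and TIMM10 differed by 0.08, 0.09 and -0.09.

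**Figure D3:**
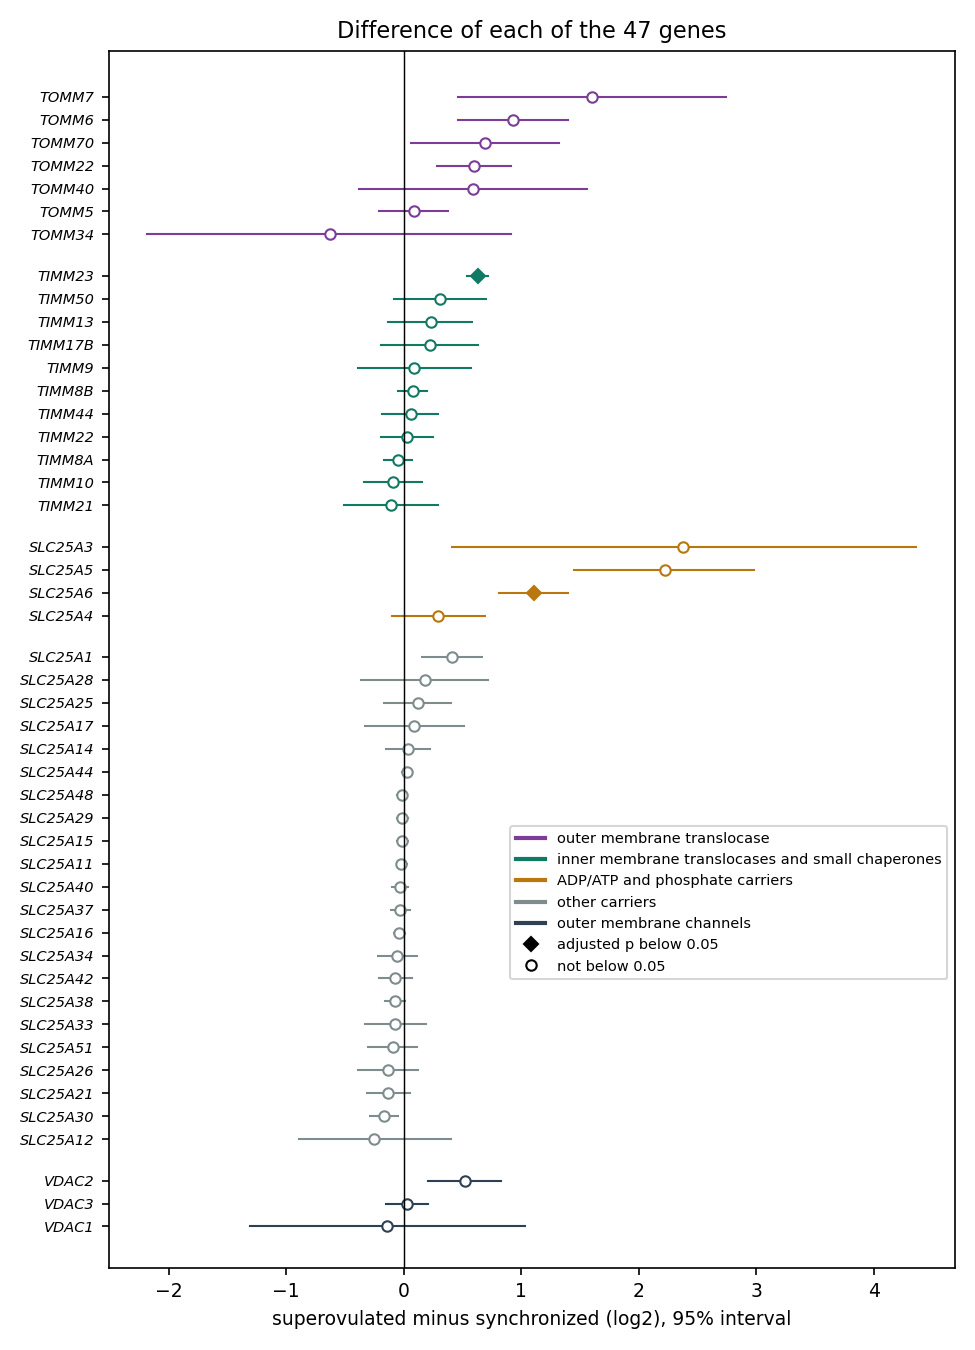
Difference superovulated minus synchronized (log2, x axis) with its 95% interval from limma for each of the 47 genes (y axis), grouped by role; filled diamonds, adjusted p below 0.05; open circles, not below. TIMM23 and SLC25A6 carry the filled diamonds, and the intervals of the 22 carriers outside the ADP/ATP and phosphate group all stay within 1 log2 unit of 0.

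The 3 largest differences among the 26 carriers were those of carriers that serve the ATP synthase. In this group of 4 genes 1 rose, 0 fell, the median difference was 1.66, and in 3 of the 4 the groups did not overlap. Over all probe sets 0.695% were called higher and 5.42% lay higher without overlap. Of the 9154 single-symbol genes 119 were called higher and 9.06% lay higher without overlap. The bright probe sets, where 42.5% lay higher without overlap, included 2 of the 4 genes. Of these SLC25A5 was bright only through its superovulated arrays. SLC25A6, an ADP/ATP carrier, read 4.08, 4.25 and 4.50 across superovulated arrays 1 to 3 and 3.12, 3.16 and 3.23 across synchronized arrays 1 to 3. Every superovulated array was above log2 4 and every synchronized array near background, 0.85 apart at the nearest. The means were 4.28 ± 0.21 and 3.17 ± 0.06 (n = 3), a difference of 1.11 or 2.15-fold (95% interval 0.81 to 1.40, limma adjusted p = 0.0413). The gene's second probe set read 3.18, 3.51 and 3.85 against 2.89, 2.86 and 2.91, also without overlap (0.18 to 1.08, limma adjusted p = 0.443), and the third was near background with a difference of 0.00. The call was lost on leaving out any single array, with adjusted p from 0.0520 without superovulated array 1 to 0.157 without superovulated array 2 and differences from 1 to 1.20. The other omissions gave 0.0576 without superovulated array 3 and 0.133, 0.0988 and 0.145 without synchronized arrays 1, 2 and 3. With an intensity trend and robust spread adjusted p was 0.0638, and centring on bright probe sets left a difference of 0.49 (adjusted p = 0.193).

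SLC25A5, the ADP/ATP carrier of proliferating cells, read 5.31, 5.62 and 5.07 across the superovulated arrays and 2.58, 3.20 and 3.57 across the synchronized arrays. The nearest arrays of the groups were 1.50 apart, and the difference was 2.22 or 4.65-fold (1.45 to 2.98). It passed the looser rule and not the main one (limma adjusted p = 0.0688), and the synchronized mean of 3.12 ± 0.50 was near background. A second probe set of the gene differed by 0.11. SLC25A4, the ADP/ATP carrier typical of heart and skeletal muscle, read 3.48, 3.19 and 3.72 against 3.24, 3.03 and 3.24, a difference of 0.29 (-0.10 to 0.69) with overlapping groups. The ADP/ATP carriers are close relatives in sequence, and whether their probe sets tell them apart was not tested.

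SLC25A3, the carrier that brings phosphate, and also copper, into the matrix, had the largest difference of the 47 genes and the widest interval. It read 7.63, 8.40 and 8.05 across superovulated arrays 1 to 3 and 4.11, 6.93 and 5.89 across synchronized arrays 1 to 3. All superovulated arrays were higher than all synchronized ones, but the synchronized arrays spread over 2.82. The means were 8.03 ± 0.39 and 5.64 ± 1.43 (n = 3), a difference of 2.38 or 5.22-fold (0.41 to 4.36), which did not pass (limma adjusted p = 0.579). Without synchronized array 1 the difference was 1.62 and without synchronized array 2 it was 3.03. It passed after centring on bright probe sets (1.76, limma adjusted p = 0.000107) and when only probe sets above log2 4 on at least 3 arrays were tested (limma adjusted p = 0.0477). The centring called 281 probe sets higher and 366 lower and the filter 517 and 31, against 167 and 5 without them. Against synchronized array 2 alone the superovulated mean of SLC25A3 was higher by 1.10, and for SLC25A5 and SLC25A6 the same comparison gave 2.13 and 1.12.

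The other 22 carriers gave 0 calls in either direction by limma. At an unadjusted p below 0.05 in limma 4.56% of all probe sets were higher and 2.09% lower, and so were 1 and 1 of these carriers. All of their values lay between 2.07 and 3.75, the median difference was -0.03, and 6 differences were above 0 and 16 below. The largest was that of SLC25A1, the citrate carrier that exports carbon for lipid synthesis, which read 2.96, 3.11 and 2.77 against 2.49, 2.62 and 2.49. The groups did not overlap, yet the difference of 0.41 (0.16 to 0.67, limma adjusted p = 0.303) lay wholly near background; SLC25A1 was chosen for mention after its values were seen. SLC25A26, the carrier of S-adenosylmethionine, read 3.43, 3.42 and 3.36 against 3.44, 3.42 and 3.75, and SLC25A14, a relative of the uncoupling proteins, 3.04, 3.02 and 3.26 against 3.05, 3.11 and 3.05. In both genes the groups overlapped.

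The 3 largest negative differences among the members were those of TOMM34, SLC25A12 and SLC25A30. SLC25A12, the aspartate/glutamate carrier of the malate-aspartate shuttle, read 2.86, 2.93 and 3.14 against 2.92, 3.75 and 3. Its difference of -0.25 (-0.89 to 0.40) rested on synchronized array 2, without which it was 0.02. SLC25A30, another relative of the uncoupling proteins, read 3.31, 3.28 and 3.26 against 3.41, 3.55 and 3.40, a difference of -0.17 (-0.29 to -0.05, limma adjusted p = 0.450). The groups did not overlap there, nor in SLC25A16, SLC25A38 and SLC25A42, chosen after their values were seen, where the nearest arrays of the groups were at most 0.02 apart.

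For the remaining carriers, including those for oxoglutarate (SLC25A11), ornithine (SLC25A15), ATP-Mg and phosphate (SLC25A25), iron (SLC25A28 and SLC25A37), pyrimidine nucleotides (SLC25A33), glutathione (SLC25A40) and NAD (SLC25A51), differences lay between -0.13 and 0.18. A probe set that reads near background on every array gives little measure of the size of a change in its transcript. Of the 24016 probe sets tested, 21103 were below log2 4 on all 6 arrays.

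Of the 3 voltage-dependent anion channels of the outer membrane 0 passed in limma. At an unadjusted p below 0.05 in limma, as for 4.56% of all probe sets, 1 channel was higher. That was VDAC2, the isoform known for holding the apoptosis effector BAK, which read 3.27, 3.71 and 3.55 across the superovulated arrays and 2.96, 3.07 and 2.94 across the synchronized arrays. The groups did not overlap, and the difference was 0.52 (0.21 to 0.83, limma adjusted p = 0.296). VDAC1, the channel that binds hexokinase, read 3.22, 3.18 and 4.09 against 3.23, 4.46 and 3.22. Superovulated array 3 and synchronized array 2 stood about 1 log2 unit above the others of their group, which otherwise agreed closely. VDAC3 differed by 0.03 (-0.15 to 0.21).

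The arrays on which VDAC1, TOMM34 and SLC25A12 were highest were also those on which several oocyte transcripts were highest. KPNA7, a nuclear import factor of the oocyte, read 5.94, 5.98 and 7.78 across superovulated arrays 1 to 3 and 4.04, 9.02 and 6.11 across synchronized arrays 1 to 3. ZP2, of the zona pellucida, read 3.31, 3.44 and 4.83, then 2.78, 6.14 and 3.94, and TNFAIP6, of the cumulus matrix, 3.05, 2.99 and 7.38, then 4.25, 8.47 and 5.96. These 3 genes were chosen after their values were seen. Of the oocyte list 5 of 7 had this order of arrays and ZP3 and GDF9 did not, and of the cumulus and granulosa list TNFAIP6 and PTX3 had it and HAS2, FSHR, CYP19A1 and AMH did not. In 8 of the 47 members superovulated array 3 and synchronized array 2 were each the highest of their group, against 9.33% of all probe sets and 39.3% of the bright ones. None of the 11 members that were higher without overlap had that order, and in 8 of the 11 synchronized array 1 was the lowest of its group. It was also the lowest in 918 of the 1406 bright probe sets and in 4849 of all 24016. Without superovulated array 3 and synchronized array 2 TOMM34 and SLC25A12 gave -0.52 and -0.07, neither passing (limma adjusted p = 0.485 and 0.486). The part of these transcripts in the members' values was not tested.

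**Figure D4:**
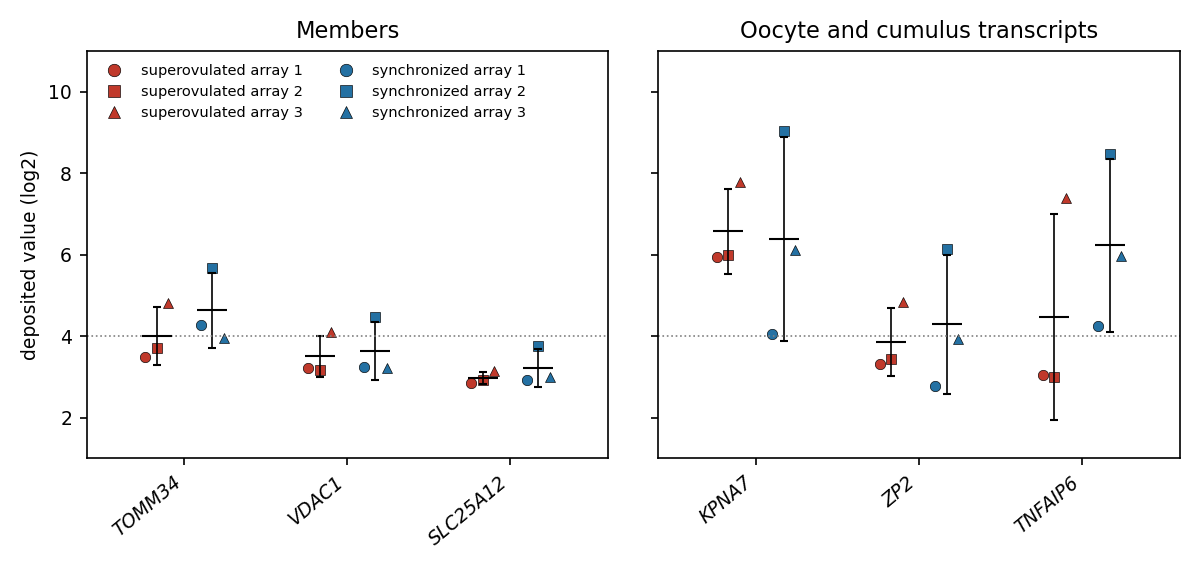
Deposited log2 value (y axis) on each array of the members TOMM34, VDAC1 and SLC25A12 (left) and of the oocyte and cumulus transcripts KPNA7, ZP2 and TNFAIP6 (right); colours, shapes and bars as mean ± SD (n = 3), dotted line at log2 4. In all 6 genes superovulated array 3 and synchronized array 2 are the highest of their groups.

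Several genes that work with the import machinery rose too. In a list of 33 such partners 23 were measured, 4 rose, 0 fell, the median difference was 0.11 and 5 were higher by the looser rule. Over all probe sets 0.695% were called higher and 1.79% by the looser rule, and of the 9154 single-symbol genes 119 and 288 were. Of the 23 partners 9 were bright, where 7.82% of probe sets were called higher. HSPA9 and OXA1L were bright only through their superovulated arrays, with synchronized means of 3.27 and 3.75, so that share is not independent of their calls. HSPA9, the HSP70 of the matrix that pulls precursors inward as the import motor, read 4.87, 4.92 and 4.52 across the superovulated arrays and 3.13, 3.26 and 3.43 across the synchronized arrays, a rise of 1.50 (limma adjusted p = 0.0328), while a second probe set differed by -0.35. OXA1L, the insertase that places proteins in the inner membrane from the matrix side, read 5.34, 5.81 and 5.66 against 3.56, 3.83 and 3.86 and rose by 1.85 (1.46 to 2.24, limma adjusted p = 0.0275). APOO, a subunit of the MICOS complex that shapes cristae, rose by 1.20 from 3.13 ± 0.13 to 4.33 ± 0.10 (n = 3, limma adjusted p = 0.0190), and HSPE1, the cochaperonin that folds imported proteins, by 3.28 (limma adjusted p = 0.0415). Of the 23 partners 7 were higher without overlap, these 4 among them, and 1, GRPEL2, was lower. Higher without overlap were 5.42% of all and 42.5% of bright probe sets and 9.06% of single-symbol genes, and lower 7.89% of all probe sets. HSPD1, also higher without overlap, differed by 1.69 and did not pass (limma adjusted p = 0.636).

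HSPA8, the cytosolic HSP70 that delivers precursors to TOMM70, was higher by the looser rule, at 8.08, 8.72 and 8.35 against 4.24, 6.23 and 5.69 (difference 3, limma adjusted p = 0.161). GRPEL1, the nucleotide exchange factor of HSPA9, read 5.81, 7.24 and 8.51 across the superovulated arrays and 6.02, 10.57 and 7.95 across the synchronized arrays. Its groups overlapped throughout, with synchronized array 2 the highest and a difference of -0.99 (-4.54 to 2.55). The scaffold subunit of MICOS, IMMT, differed by 0.11 (-0.12 to 0.34), and SAMM50 and MTX2, of the machinery that sorts barrel proteins into the outer membrane, by 0.18 and 0.06, none of them passing. The 4 rises became 2, 0 and 1 without superovulated arrays 1, 2 and 3, and 2, 1 and 0 without synchronized arrays 1, 2 and 3. Over all probe sets the 167 called higher fell to between 26 and 96 over the same omissions.

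**Figure D5:**
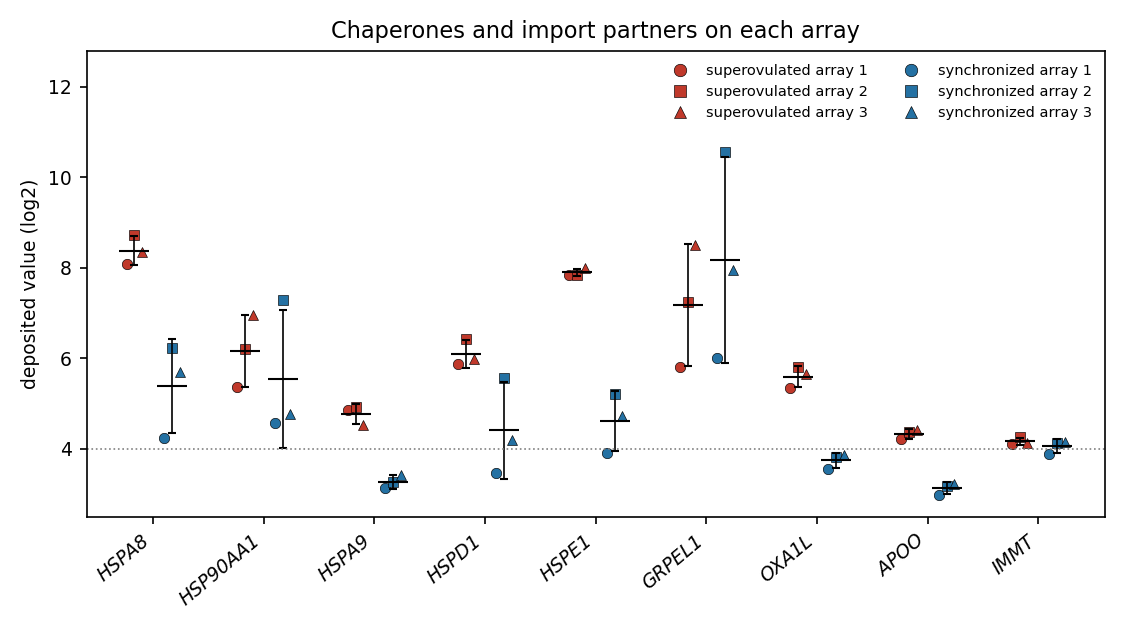
Deposited log2 value (y axis) of 9 partners of mitochondrial import (x axis) on each array; colours, shapes and bars as mean ± SD (n = 3), dotted line at log2 4. HSPA8, HSPA9, HSPD1, HSPE1, OXA1L and APOO show no overlap between the groups, whereas GRPEL1 and HSP90AA1 are highest on synchronized array 2.

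Other transport genes of the inner membrane gave 0 calls in 13 measured of 21 listed by limma. At an unadjusted p below 0.05 in limma 1 was higher and 0 lower (4.56% and 2.09% of all probe sets). The gene in question was MICU2, a calcium-sensing subunit of the mitochondrial calcium uniporter, at 4.12, 4.73 and 4.54 against 3.17, 3.48 and 3.09, a difference of 1.22 that passed the looser rule (limma adjusted p = 0.109). The subunits of the pyruvate carrier, MPC1 and MPC2, differed by 0.11 and 0.01 near background. Partners of VDAC at the outer membrane (8 measured of 11 listed, median 0.01) and regulators of mitochondrial biogenesis (8 of 13, median -0.03) had 0 calls by limma, with 1 and 0 at an unadjusted p below 0.05. Among the regulators TFB1M, which modifies mitochondrial ribosomal RNA, read 6.67, 7.12 and 5.98 against 5.04, 5.03 and 6.23, and its groups overlapped at superovulated array 3 and synchronized array 3. The transcription factor NRF1 and the coactivator PPARGC1A read between 2.64 and 3.95.

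The arrays themselves differed. Between 1457 and 1894 probe sets exceeded log2 4 on a superovulated array and between 973 and 1850 on a synchronized one, with synchronized array 1 the lowest. The mean of the 47 members was 3.33, 3.41 and 3.40 across superovulated arrays 1 to 3 and 3.03, 3.25 and 3.14 across synchronized arrays 1 to 3. Over all probe sets 0.695% were called higher, 1.79% were higher by the looser rule and 4.56% were higher at an unadjusted p below 0.05 in limma. Of the trophectoderm list 6 of 11 were measured, 1, KRT18, was called higher (difference 3.89, limma adjusted p = 0.0410), 2 were higher by the looser rule, 0 were lower, and the median difference was 0.25. Its array means were 3.72 to 3.87 on the superovulated and 2.76 to 3.05 on the synchronized arrays, with KRT18 at 7.94 ± 0.19 and 4.04 ± 0.74 (n = 3), PTGS2, the other by the looser rule, differing by 1.29, and KRT8, IFNT2, ELF5 and TEAD4 by -0.01, -0.01, 0.12 and 0.38. Of the inner cell mass list 3 of 6 were measured and 0 called by limma, 2 being higher at an unadjusted p below 0.05, with a median difference of 0.81. Its array means were 3.53 to 3.79 on the superovulated and 2.81 to 3.05 on the synchronized arrays, with POU5F1 at 3.40 and 2.59, KLF4 at 5.10 ± 0.38 and 3.78 ± 0.26 (n = 3, higher by the looser rule, limma adjusted p = 0.150) and SOX2 at 2.42 in both groups. The oviduct list (3 genes) ranged from 2.42 to 2.51 in its array means and the blood list (4 genes) from 2.83 to 2.96, both near background, and the oocyte list (7 genes) from 3.15 to 3.89 on the superovulated and 2.93 to 4.63 across the synchronized arrays. The cumulus and granulosa list (6 genes) ran from 3 to 3.84 on the former and from 3.21 to 4.21 on the latter. In RNA of whole embryos fewer cells of a kind and less transcript per cell cannot be told apart, and the part of cell makeup in these differences was not tested.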

How the data were processed

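Bovine day-7 blastocysts were measured on 6 arrays, 3 per group. The deposited log2 values were made by the authors with GCRMA per the submitters' processing notes, version not given in the sources used here; whether all arrays were normalized together is not stated. Values were used as deposited. Of 24128 probe sets, 112 controls were set aside. Symbols came from the platform annotation, and all 47 members matched the ARS-UCD2.0 table with 0 symbols changed. limma 3.58.1 in R 4.3.3 (lmFit, eBayes, group only, two-sided) was fitted to all 24016 probe sets, with Benjamini-Hochberg adjustment. The number of arrays limits precision: tested on simulated data for this comparison (24016 probe sets, 5 runs), the fit called 8.2% of probe sets changed by 1 log2 unit and 28% of those changed by 2. The changes were put only into probe sets with a mean above log2 4, which 7 of the 47 members had. These shares therefore do not cover the dimmer members.

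Members and lists were chosen with earlier results of these data known. Values on every array are given for members with a call or looser call, a mean above log2 4 or 1 of the 3 largest negative differences, and for up to 2 further members per role, by mean. One carrier gene is not reported here. Alternatives covered scaling, filters, a trend, a block, gene averages and omitted arrays.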

Additional observations from a re-analysis of the deposited data

How the results depend on the processing

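With 3 arrays a group the calls were fragile, among the members and over all probe sets alike. Over all probe sets the 167 called higher became 26 to 96 on leaving out single arrays. They became 0 without superovulated array 3 and synchronized array 2 together, and 92 with an intensity trend and robust spread. The 2 members called higher became 0 to 2 on leaving out single arrays, 0 without superovulated array 3 and synchronized array 2 together, 1 with an intensity trend and robust spread, and 5 when only probe sets above log2 4 on at least 3 arrays were tested. That filter keeps any probe set bright in 1 group alone, and SLC25A5 and SLC25A6 passed it only through their superovulated arrays. Over all probe sets it kept, 517 were called higher and 31 lower. With only probe sets of a mean above log2 4 the 3 members called were SLC25A5 (limma adjusted p = 0.00600), TOMM6 (0.0354) and TOMM7 (0.0422). TIMM23 and SLC25A6 were then not tested. SLC25A5 cleared this mean only through its superovulated arrays, its synchronized arrays reading 2.58, 3.20 and 3.57. Of all probe sets kept by this mean, 413 were called higher and 28 lower. With the replicate block 0 of all probe sets were called in either direction, and so 0 members and 0 import partners. TIMM23 and SLC25A6 then gave limma adjusted p = 0.114 and 0.140. Deviations from the group mean on same-numbered arrays correlated at r = 0.542, -0.399 and -0.405 for numbers 1 to 3. The labels do not say what a number marks, and 3 arrays a group cannot settle whether the numbers pair the arrays. The looser count of 2 higher became 4 with probe sets above log2 4 on at least 3 arrays, 0 without both named arrays, and 1 to 4 on leaving out single arrays.

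Centring on bright probe sets lowered the difference of every probe set by the same amount. It moved the median over members to -0.59 and that over all probe sets to -0.64. By either rule 1 member was then lower, TOMM34 at -1.25 (limma adjusted p = 0.0221). Over all probe sets the centring called 281 higher and 366 lower, against 167 and 5 in the principal fit. The 2 members called higher were then SLC25A3 at 1.76 (adjusted p = 0.000107) and SLC25A5 at 1.59 (0.000824) in place of TIMM23 at 0.01 (0.982) and SLC25A6 at 0.49 (0.193). It turned TIMM13 to -0.39 and TOMM22 to -0.02. The second quantile normalization turned TIMM13 to -0.37, and leaving out single arrays moved SLC25A12 from -0.40 to 0.02, above 0 without synchronized array 2. The median over members was 0.93 and 1.02 under the filters on dim probe sets, which tested 7 and 8 members, and -0.01 to 0.06 on leaving out single arrays. Import partners called higher were 4 in the principal fit, 1 after the second quantile normalization, 2 with the trend and robust spread, 0 without both named arrays and 0 to 2 on leaving out single arrays. Over all probe sets 27 were called higher after the second quantile normalization, against 167 in the principal fit. Gene averages and median centring left the member counts at 2. Probe sets near background limit what could be detected.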
